A study of Mus musculus with 4 samples.

Results

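TRP1high T cells given the K8 peptide were compared with TRP1low T cells given the M9 peptide, 1 RNA sequencing library each, which makes 2 of the 4 libraries of the series. Both are mouse T cells named for the T cell receptor (TCR) they carry, and the name TRP1 stands for tyrosinase-related protein 1, an enzyme of pigment cells and an antigen of melanoma. In both groups B cells loaded with the peptide stimulated the T cells for 48 h, and the T cells were then separated from the B cells by fluorescence-activated sorting. The series asks how the way a tumor peptide is held by MHC class I bears on the effector response of CD8 T cells. The labels name no strain, age or number of animals or cultures, and the peptide sequences are not used here. Receptor and peptide differ together between the 2 libraries, so within this pair their parts in a difference cannot be told apart. Whatever else goes with the receptor label, such as the source of the cells, cannot be told apart from the receptor either. The other 2 libraries, TRP1high with M9 and TRP1low with K8, hold the same receptors with the peptides exchanged and share no library with the first pair. They are used below only as a second pair to set beside the first.

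A CD8 T cell reads, through its TCR, a short peptide held by an MHC class I molecule on another cell. Stronger or longer contact is known to raise immediate response genes such as the Nr4a and Egr families, then cytokines, granule proteins and inhibitory receptors, and to lower genes of the resting and circulating state such as Klf2 and S1pr1. Growth, protein synthesis and division are programs that most activated T cells share.

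Expression is given as deposited, as the log2 of the normalized count plus 1. A gene entered when it reached at least 100 normalized counts in 1 of the 2 libraries, which 10210 of 16338 genes did (62.5%). The difference is TRP1high with K8 minus TRP1low with M9, and folds of single genes are ratios of normalized counts. With 1 library per group there is no replicate error and no p-value. The 95% exact (Clopper-Pearson) intervals in parentheses cover counting error only, at a depth of 40.5 M and 40.3 M estimated reads. Called genes are those at least 2-fold apart, and genes under 1.5-fold apart count as close. In bulk libraries fewer cells with a transcript and less transcript per cell cannot be told apart.

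The receptor transcripts told the 2 libraries apart as labelled. The segments that did so are shown here because the receptor is 1 of the 2 things that the labels give as different. Trbv13-3, a variable segment of the TCR beta chain, stood at log2 12.43 in TRP1high with K8 and at 1.63 in TRP1low with M9 (5516 against 2 estimated reads). Trbv12-1 was the reverse, at 1.0 and 13.44 (1 against 10580 reads). Of the alpha chain joining segments, Traj42 had 801 reads against 0 and Traj26 had 3 against 290. Trbj1-2 is the joining segment that held 56.3% of the Trbj reads of TRP1low with M9. The germline sequences below come from GENCODE M21 on GRCm38 (mm10), all on the plus strand. For the variable segments the last 60 bases are printed, with the codon of the conserved cysteine in capitals, and for the joining segments the whole segment, with the codons of the phenylalanine-glycine-any-glycine motif in capitals.
Trbv13-3: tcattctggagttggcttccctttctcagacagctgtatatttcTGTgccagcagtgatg
Trbv12-1: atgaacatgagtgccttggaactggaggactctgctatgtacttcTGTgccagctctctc
Traj42: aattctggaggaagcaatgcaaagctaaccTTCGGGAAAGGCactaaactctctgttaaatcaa
Traj26: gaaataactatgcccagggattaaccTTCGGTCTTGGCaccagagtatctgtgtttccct
Trbj1-2: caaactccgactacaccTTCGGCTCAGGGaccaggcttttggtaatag
Trbv13-3 lies on chromosome 6 from 41130147 to 41130585, Trbv12-1 from 41113550 to 41114067 and Trbj1-2 from 41534001 to 41534048, and Traj42 and Traj26 lie on chromosome 14 at 54175773 to 54175836 and 54194490 to 54194549. The constant genes also differed. Trbc1 had 2013 reads in TRP1high with K8 and 31346 in TRP1low with M9, which is 8.40% and 62.7% of the Trbc reads. Trbc2 was close, at log2 14.42 and 14.25.

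Most of the transcriptome was close between the 2 libraries. Of the 10210 genes, 7878 (77.2%) were under 1.5-fold apart, 586 (5.74%) were at least 2-fold higher in TRP1high with K8 and 363 (3.56%) at least 2-fold lower. The median difference was -0.04 and the quartiles were -0.30 and 0.30. Genes at least 4-fold apart numbered 118 higher (1.16%) and 125 lower (1.22%). A gene that passed through 1 library alone had to differ somewhat, and 353 of these 574 genes were at least 2-fold apart (61.5%), against 6.19% of the 9636 genes that reached 100 normalized counts in both. Just inside the limit, from 100 to 105 normalized counts, 52 genes had a median difference of 0.06 and 16 were 2-fold apart. Just outside it, from 95 to 100, 62 genes had a median of 0.05 and 18 were 2-fold apart.

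**Figure D1:**
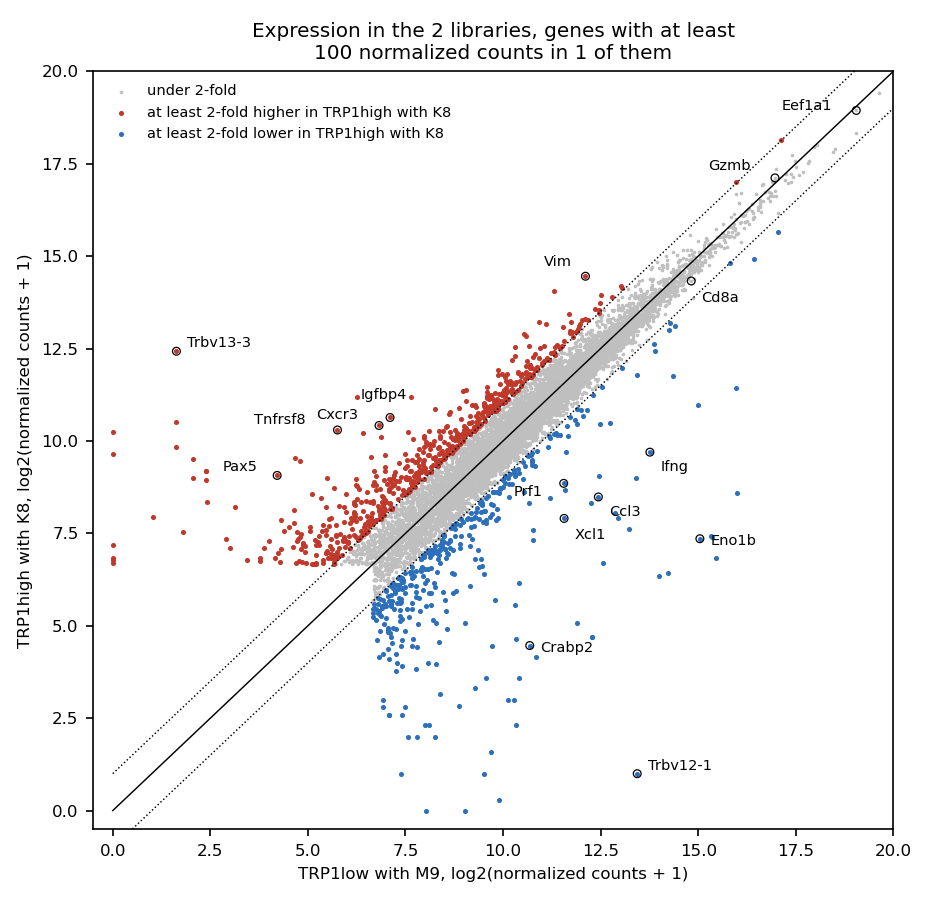
Each point is 1 of 10210 genes, with its log2(normalized count + 1) in TRP1low with M9 on the horizontal axis and in TRP1high with K8 on the vertical axis. The solid line marks equal levels and the dotted lines a difference of 1. Most points lie between the dotted lines, Gzmb and Cd8a among them, while Ifng, Ccl3, Xcl1 and Prf1 lie below and Cxcr3, Tnfrsf8 and Igfbp4 above.

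Gene programs were given a standing by a rule of size, since 1 library a group allows no test. A program was called level when at least 75% of its passing members were under 1.5-fold apart and its median difference was within 0.25 of 0, higher or lower when the median was at least 0.5 from 0 with fewer than 25% of the members at least 1.5-fold apart the other way, mixed when it met neither and at least 25% of its members were 2-fold apart, and slight otherwise. Of 30 programs, 16 were level, 2 were lower in TRP1high with K8 (T cell receptor-induced immediate response genes, and inhibitory receptors and exhaustion-associated genes), 2 were higher (naive and memory-associated genes, and interferon-stimulated genes), 3 were mixed and 7 were slight. The 16 level programs held 76.2% to 100% of their members under 1.5-fold apart, against 77.2% of all genes, so those at the lower end were no closer than genes at large. Counts of called members are likewise read against 5.74% of all genes higher and 3.56% lower.

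**Figure D2:**
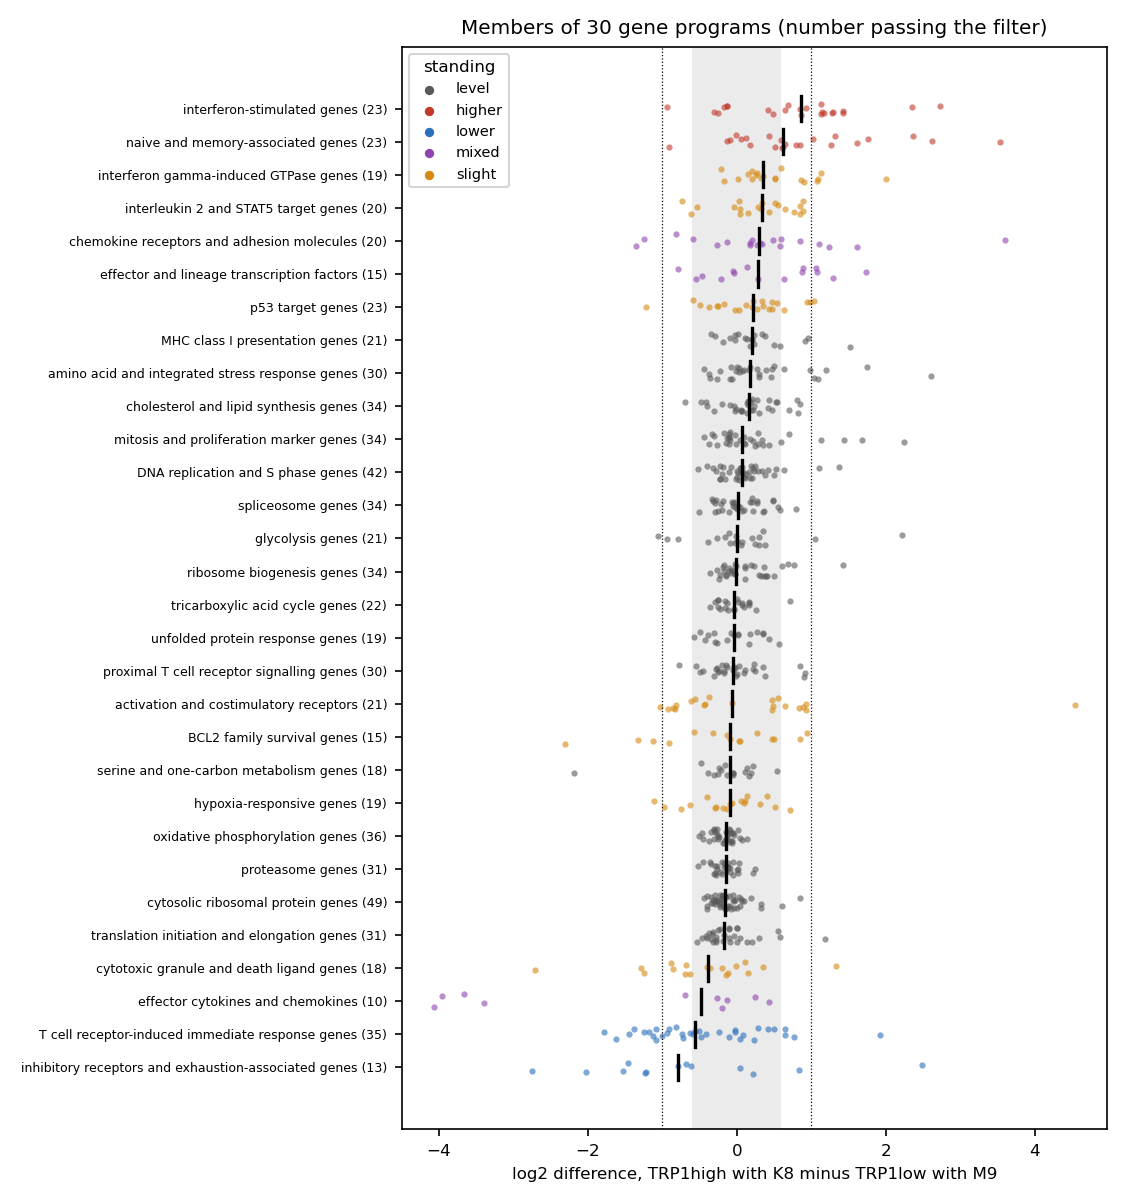
Each point is 1 passing member of 1 of 30 gene programs, placed by its log2 difference, TRP1high with K8 minus TRP1low with M9, and the black bar is the program's median. The grey band marks under 1.5-fold and the dotted lines 2-fold. The 2 programs at the top have medians of 0.86 and 0.62 and the 2 at the bottom -0.56 and -0.79, while oxidative phosphorylation and proteasome members all lie inside the band.

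Effector cytokines and chemokines were divided: 4 of the 10 members that passed were over 10-fold lower in TRP1high with K8, and the differences of the other 6 lay between -0.69 and 0.43. Ifng (chromosome 10, 118441046 to 118445892), which encodes interferon gamma, stood at log2 9.70 in TRP1high with K8 and at 13.76 in TRP1low with M9, 16.8-fold lower (15.6 to 18.0). The other pair was level for it, at 12.74 in TRP1high with M9 and 12.89 in TRP1low with K8, so TRP1high with K8 stood alone as the low library of the 4. The chemokine Ccl3 (chromosome 11, 83647844 to 83649355), which draws effector and myeloid cells, stood at 8.49 and 12.44, 15.6-fold lower (13.99 to 17.4). Its neighbour Ccl4 (chromosome 11, 83662584 to 83664683), a chemokine of like function, stood at 9.06 and 12.45, 10.6-fold lower (9.66 to 11.6). Xcl1 (chromosome 1, 164931644 to 164935527), the chemokine that draws cross-presenting dendritic cells, stood at 7.90 and 11.56, 12.7-fold lower (11.1 to 14.5). In the other 2 libraries Ccl3, Ccl4 and Xcl1 lay between 10.43 and 12.16, above TRP1high with K8 for each of the 3 genes.

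Tnf, the tumor necrosis factor gene, stood close at 8.63 and 8.83, as did Lta, which encodes lymphotoxin alpha, at 12.98 and 13.25. Of 26 listed cytokine and chemokine genes, 22 were measured and 10 passed, of which 4 were at least 2-fold lower, 0 higher (against 3.56% and 5.74% of all genes) and 5 under 1.5-fold apart. Their median was -0.48 and the program was called mixed. It met the rule for lower with a limit of 1000 normalized counts (median -1.83, 8 members) and without members also known in B cells or myeloid cells (-0.69, 9 members). The 12 measured members under the limit went both ways. Il2 and Il3, the genes of the growth factors interleukin 2 and interleukin 3, were lower: Il2 had 6 reads against 92, 16.1-fold lower (7.13 to 45.0), and Il3 had 0 against 64, at least 22.4-fold lower when the 0 is set at a floor of 3 reads. The chemokine gene Ccl9 had 2 reads against 83 (45.6-fold lower, 11.7 to 366) and Csf2, the gene of the growth factor GM-CSF, 3 against 21 (7.36-fold lower, 2.20 to 38.5). Higher were the chemokine genes Ccl5, at 96 against 33 reads (2.77-fold, 1.85 to 4.25), and Cxcl10, at 41 against 14 (2.86-fold, 1.49 to 5.54), and Il24, at 12 against 2 (4.50-fold, 1.27 to 52.5).

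Cytotoxic genes divided. Gzmb (chromosome 14, 56258838 to 56262260), the gene of granzyme B, the protease that triggers death of the target cell, was close, at log2 17.12 in TRP1high with K8 and 16.97 in TRP1low with M9. Prf1 (chromosome 10, 61297833 to 61304680), whose product perforin opens the target membrane to granzymes, stood at 8.85 and 11.55, 6.52-fold lower (5.91 to 7.21). So the granzyme was level while the pore former was not. Srgn, the proteoglycan serglycin that packs the granules, was 2.37-fold lower (2.31 to 2.44), though its difference came to -0.97 with length and GC content centred, and Fasl, the ligand of the death receptor Fas, was 2.44-fold lower (2.09 to 2.86). Tnfsf10, which encodes the death ligand TRAIL, was 2.53-fold higher (2.15 to 2.999). Of 26 listed genes, 23 were measured and 18 passed, with 1 at least 2-fold higher (5.56%, the share of all genes being 5.74%), 3 lower (16.7% against 3.56%) and 9 under 1.5-fold apart. The median was -0.38 and the program was slight. Gzma and Gzmf, further granzyme genes, stayed under the limit and were higher, at 83 against 7 reads (11.2-fold, 5.24 to 28.9) and 24 against 4 (5.71-fold, 1.96 to 22.6).

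Inhibitory receptors and exhaustion-associated genes were lower in TRP1high with K8, with a median of -0.79. Of 20 listed and measured genes, 13 passed, 6 of them at least 2-fold lower, 1 higher and 2 under 1.5-fold apart. Nrn1, the gene of neuritin, a surface protein of exhausted and anergic T cells, stood at 8.46 and 11.21, 6.74-fold lower (6.03 to 7.58). Cd200, a surface ligand that restrains myeloid cells, stood at 10.46 and 12.49, 4.06-fold lower (3.83 to 4.31). Pdcd1 (chromosome 1, 94038305 to 94052553), which encodes the checkpoint receptor PD-1, stood at 10.13 and 11.66, 2.88-fold lower (2.69 to 3.09).

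The remaining lower members were Lag3, a receptor for MHC class II (2.75-fold, 2.67 to 2.84), Tigit, a receptor for nectins (2.34-fold, 2.19 to 2.52), and Pdcd1lg2, the PD-1 ligand PD-L2 (2.33-fold, 2.03 to 2.67). Cd101, the 1 member at least 2-fold higher, stood at 7.12 and 4.63, 5.81-fold higher (3.65 to 9.31). Ctla4, the gene of a receptor that competes with CD28 for its ligands, was 1.78-fold higher, at 13.88 and 13.05. In the other pair the same 13 members had a median of 0.96 with TRP1high with M9 on the higher side, and Pdcd1, Lag3, Tigit and Cd200 there stood 4.22-fold, 7.83-fold, 13.8-fold and 19.1-fold higher in TRP1high with M9 than in TRP1low with K8. Each of these 4 genes was thus higher in the M9 library of both pairs. With a limit of 10 normalized counts 18 members passed, the median was -0.48 and the program met the rule for mixed.

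Immediate response genes of the TCR were lower too, though by less. Of 37 listed and measured genes, 35 passed, 9 of them at least 2-fold lower, 1 higher and 14 under 1.5-fold apart, with a median of -0.56. Nr4a1 (chromosome 15, 101254269 to 101274795), the gene of the orphan nuclear receptor Nur77, which follows TCR signal strength, stood at 10.82 and 11.998, 2.26-fold lower (2.13 to 2.39). Its relative Nr4a3 stood at 12.62 and 13.88, 2.38-fold lower (2.31 to 2.45). Nr4a2, the remaining member of that family, went the other way, at 8.67 and 6.74, 3.83-fold higher (3.08 to 4.82).

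Egr2 and Egr3, zinc finger factors that restrain the T cell response, were 3.45-fold (2.97 to 4.05) and 2.18-fold lower (1.97 to 2.40). Spry1 and Spry2, which encode inhibitors of Ras signalling, were 2.61-fold (2.29 to 2.99) and 2.76-fold lower (1.90 to 4.08), and Fos, a subunit of the factor AP-1, was 3.13-fold lower (2.16 to 4.71) at 37 against 111 reads. Irf8, an interferon regulatory factor, and Dusp2, a phosphatase of MAP kinases, were each 2.12-fold lower, Dusp2 by 0.98 on the log2 scale, just under 2-fold, with length and GC content centred. Myc, the growth regulator, was close at 13.76 and 13.53, as was Cd5, a surface regulator set by TCR signal strength, at 11.57 and 11.60. With both libraries scaled to equal totals the median became -0.49 and the program met the rule for mixed. In the other pair the same 35 members had a median of 1.11, with TRP1high with M9 on the higher side.

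Upstream of these genes, the machinery of proximal TCR signalling was level. All 30 listed genes passed, 26 were under 1.5-fold apart and 0 were 2-fold apart in either direction, with a median of -0.04. Cd8a, the alpha chain of the CD8 coreceptor, stood at 14.33 and 14.82, and the kinase gene Lck at 14.09 and 14.22. The widest were Plcg1, the phospholipase that releases the calcium signal, 1.88-fold higher, and Grap2, the adaptor Gads, 1.87-fold higher. Activation and costimulatory receptors were slight. Of 23 listed and measured, 21 passed, with a median of -0.07, 1 at least 2-fold higher, 1 lower and 9 under 1.5-fold apart. The higher one was Tnfrsf8 (chromosome 4, 145267137 to 145315164), which encodes CD30, at 10.30 and 5.76, 23.7-fold higher (17.8 to 31.7). The lower one was Cd69, the early activation marker, at 10.86 and 11.89, 2.04-fold lower (1.92 to 2.15). Its call did not hold with the median difference, the trimmed mean difference or the totals made equal (-0.99, -0.997 and -0.96), nor with length and GC content centred (-0.75). Icos and Tnfrsf4, costimulatory receptors, were 1.90-fold higher and 1.90-fold lower.

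**Figure D3:**
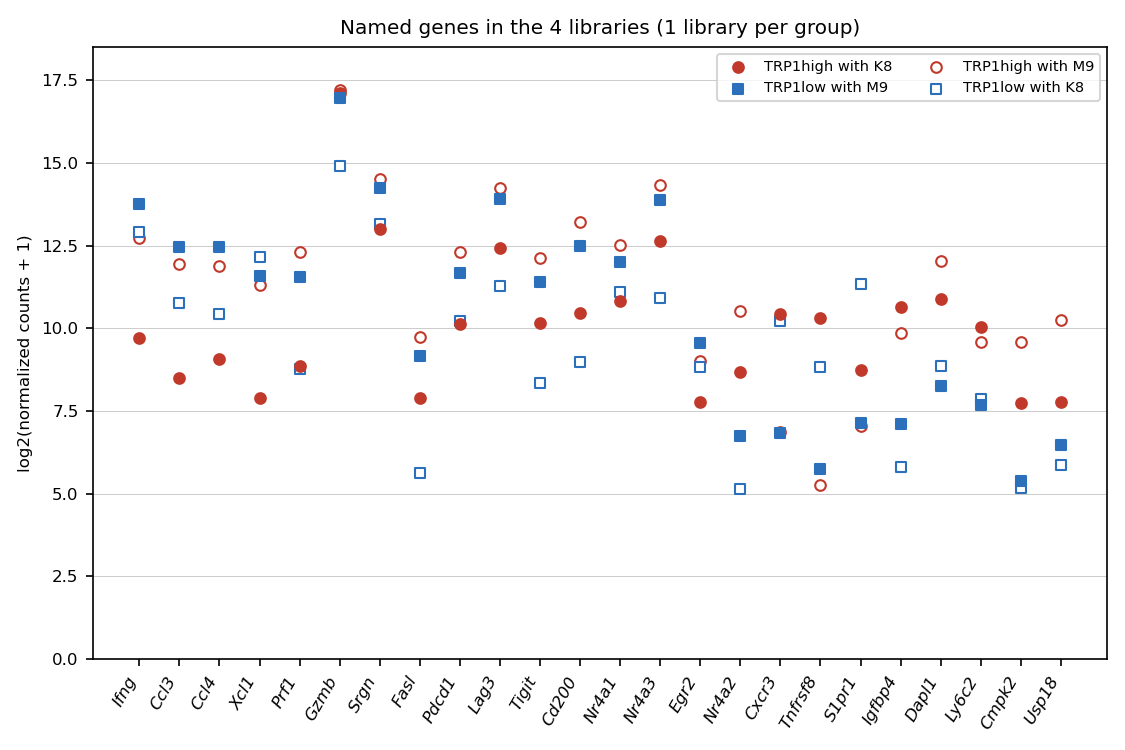
Each column is 1 gene and each symbol its log2(normalized count + 1) in 1 of the 4 libraries, with filled symbols for the pair compared here and open symbols for the other pair. TRP1high with K8 (filled circles) lies lowest of the 4 libraries for Ifng, Ccl3, Ccl4 and Xcl1, near the highest for Gzmb, and with TRP1low with K8 (open squares) at the high end for Cxcr3 and Tnfrsf8.

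Naive and memory-associated genes were higher in TRP1high with K8. Of 24 listed and measured genes, 23 passed, 8 of them at least 2-fold higher, 0 lower and 8 under 1.5-fold apart, with a median of 0.62. Igfbp4 (chromosome 11, 99041244 to 99054392), a growth factor binding protein of naive T cells, stood at 10.63 and 7.10, 11.6-fold higher (9.74 to 14.04). Dapl1, a gene of naive and memory CD8 T cells, stood at 10.87 and 8.25, 6.17-fold higher (5.45 to 7.01), and Ly6c2, a surface marker of memory CD8 T cells, at 10.05 and 7.69, 5.15-fold higher (4.42 to 6.04). These 3 were higher in TRP1high than in TRP1low in the other pair as well, by 16.6-fold, 8.99-fold and 3.30-fold.

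A second set of the 8 did not keep its direction. S1pr1 (chromosome 3, 115710433 to 115715072), the receptor that guides T cells out of lymphoid tissue, stood at 8.75 and 7.13, 3.08-fold higher (2.53 to 3.77), while in the other pair it was 19.8-fold lower in TRP1high with M9. Its activator Klf2 stood at 9.20 and 7.89, 2.49-fold higher (2.13 to 2.92), and was 4.15-fold lower in the other pair. Rasgrp2, a Rap activator of integrin adhesion, was 3.39-fold higher (2.97 to 3.88) and 6.12-fold lower in the other pair. So these 3 genes were higher in the K8 library of both pairs. Markers of B cells, which also express S1pr1, were higher in the same libraries, with a median level of log2 7.24 against 4.80 here and of 6.50 against 3.47 in the other pair, and their part in these genes was not tested. Lef1 and Treml2 were 2.41-fold and 2.03-fold higher, Treml2 with a difference of 0.95 once length and GC content were centred. Tcf7, the factor TCF1 of stem-like T cells, was close at 13.49 and 13.31, and Ccr7, the lymph node homing receptor, at 14.10 and 14.23.

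Interferon-stimulated genes had the highest median of the 30 programs, at 0.86. Of 38 listed and measured genes, 23 passed, 10 of them at least 2-fold higher, 0 lower and 7 under 1.5-fold apart. Ifit1 (chromosome 19, 34640871 to 34650009), which binds viral RNA, stood at 6.96 and 4.23, 6.94-fold higher (4.16 to 12.3) at 124 against 17 reads. Cmpk2, a nucleotide kinase, stood at 7.74 and 5.39, 5.20-fold higher (3.68 to 7.51). Ifi27l2a, Dhx58, Usp18, Dtx3l, Oas3, Xaf1, Ddx58 and Stat2 were 2.19-fold to 2.71-fold higher, of which Stat2 came to a difference of 0.97 with length and GC content centred. Among them, Usp18 encodes the protease that removes ISG15 from proteins, Dhx58 and Ddx58 encode RNA sensors, and Stat2 encodes a subunit of the interferon-activated factor ISGF3.

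Isg15, the ubiquitin-like modifier that Usp18 removes, did not share the direction, at 6.84 and 6.98. The genes with the largest folds were also scarce, and 15 of the 38 members did not pass the limit. In the other pair the 23 members had a median of 1.46, with TRP1high with M9 on the higher side, 15 at least 2-fold higher and 2 lower. Cmpk2, Usp18, Oas3 and Isg15 were 21.9-fold, 20.8-fold, 13.4-fold and 27.2-fold higher there, so TRP1high was the higher library in both pairs for the first 3 of these. The 2 lower members were Ddx58, 2.09-fold lower there and 2.20-fold higher here, and Ifi203, 3.14-fold lower there and 1.91-fold higher here.

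The promoters of 2 of the genes that were higher together are printed to show the element they are known for, the binding site of ISGF3, searched as GAAA, any 2 bases and GAAA again, on either strand. Each is the 250 bases before the RefSeq start on GRCm38.p6, 5′ to 3′ on the gene's strand, with matches in capitals. A match on the opposite strand reads as TTTC, 2 bases and TTTC. Ifit1 lies on the plus strand at chr19:34640639-34640888 and Oas3 on the minus strand at chr5:120777660-120777909.
Ifit1: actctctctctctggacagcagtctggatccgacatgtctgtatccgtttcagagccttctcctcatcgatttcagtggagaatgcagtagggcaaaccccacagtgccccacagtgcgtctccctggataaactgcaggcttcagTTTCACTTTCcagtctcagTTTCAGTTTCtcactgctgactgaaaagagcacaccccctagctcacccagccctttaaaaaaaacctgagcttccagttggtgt
Oas3: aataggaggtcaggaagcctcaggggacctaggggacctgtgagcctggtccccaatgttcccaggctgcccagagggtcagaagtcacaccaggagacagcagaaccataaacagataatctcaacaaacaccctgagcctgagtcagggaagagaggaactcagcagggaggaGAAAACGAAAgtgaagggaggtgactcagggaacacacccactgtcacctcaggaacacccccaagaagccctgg
Ifit1 held 2 matches and Oas3 held 1. Windows of 300 bases, from 250 before to 50 after the start, were searched, and a gene counted when any of its windows held a match. Of the 16 passing program members with a window 11 did (68.8%), against 3.99% of all 27025 genes with a window and 3.85% of the passing genes. The list holds genes known to be induced by interferon, so this share describes the list and not the difference between the libraries. Of the 10 members at least 2-fold higher 7 had a window, and 4 of these held a match (Ddx58, Ifit1, Oas3 and Stat2). Of the 9 others with a window 7 did. These numbers are too small to say whether the share follows the difference.

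The GTPases induced by interferon gamma were slight although Ifng itself was far lower. Of 20 listed and measured genes, 19 passed, with a median of 0.35, 4 at least 2-fold higher, 0 lower and 12 under 1.5-fold apart. Gvin1, a giant GTPase gene, was 4.001-fold higher (3.76 to 4.27), and Gbp7, Gbp6 and Gbp10, guanylate binding proteins of the defence against intracellular microbes, were 2.12-fold to 2.19-fold higher. They belong to families of similar genes, so reads can be split between members. Gbp2b, a further guanylate binding protein gene that the list did not hold, was 115-fold lower, and Gbp2, with a difference of 0.86, came to 0.30 when the pair was summed. MHC class I presentation genes were level, with a median of 0.20 and 18 of 21 under 1.5-fold apart, and slight with equal totals (0.26). B2m, the light chain of MHC class I, stood at 15.86 and 15.64, H2-K1, a classical heavy chain, at 15.30 and 15.49, and H2-D1, another, at 15.53 and 15.55. H2-Q6, a nonclassical heavy chain gene with near copies, was the 1 called member, 2.88-fold higher (2.72 to 3.05).

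Chemokine receptors and adhesion molecules were mixed. Of 27 listed genes, 26 were measured and 20 passed, 4 at least 2-fold higher, 2 lower and 11 under 1.5-fold apart, with a median of 0.30. Cxcr3 (chromosome X, 101731535 to 101734269), the receptor that takes effector T cells to inflamed tissue, stood at 10.42 and 6.82, 12.2-fold higher (10.004 to 14.98). S1pr1 was the next highest. Itgb7, the beta chain of gut-homing integrins, was 2.35-fold higher (2.24 to 2.47; a difference of 0.998 with length and GC content centred) and Cxcr5, the receptor of follicle-homing cells, 2.16-fold higher (1.89 to 2.48). Gpr183, an oxysterol receptor, was 2.56-fold lower (2.20 to 2.99). In the other pair Cxcr3 was 10.4-fold lower and Cxcr5 10.5-fold lower in TRP1high with M9, so both were higher in the K8 library of each pair, as the B cell markers were, while Gpr183 was lower in TRP1high in both, by 2.97-fold there. B cells also express Cxcr5, Gpr183 and S1pr1. Without the members also known in B cells or myeloid cells, the 12 that were left had a median of 0.24 and met the rule for level.

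Effector and lineage transcription factors were mixed as well. Of 22 listed and measured genes, 15 passed, 4 at least 2-fold higher, 0 lower and 7 under 1.5-fold apart, with a median of 0.29. Prdm1, the gene of BLIMP1, a driver of terminal effector cells and of plasma cells, stood at 7.94 and 6.21, 3.36-fold higher (2.54 to 4.41). Runx3, which maintains the CD8 lineage, was 2.44-fold higher (2.28 to 2.61; a difference of 0.89 with length and GC content centred), Ikzf2, the gene of Helios, 2.11-fold (1.82 to 2.45) and Gata3 2.09-fold (1.67 to 2.62). Tbx21 and Eomes, the T-box factors of effector and memory CD8 T cells, were close, at 11.70 against 11.91 and 11.07 against 10.94. Interleukin 2 and STAT5 target genes were slight: all 20 listed genes passed, 0 were 2-fold apart, and the median was 0.33. Their widest was Il2rb, the shared beta chain of the interleukin 2 and 15 receptors, 1.85-fold higher.

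Metabolic programs were level or slight. Of 36 oxidative phosphorylation genes, all 36 passed and all 36 were under 1.5-fold apart, with a median of -0.14 and a range from -0.51 to 0.13. In the tricarboxylic acid cycle 21 of 22 were under 1.5-fold apart (median -0.04). Glycolysis genes had a median of 0.01 with 16 of 21 passing members under 1.5-fold apart, near the share of all genes, and Ldha, lactate dehydrogenase A, stood at 17.18 and 17.57. Called among them were Aldoc, a fructose aldolase of brain that stood at 9.18 and 6.96 (4.67-fold higher, 3.83 to 5.75), Eno1, enolase 1 (2.08-fold higher, 2.06 to 2.10, though the difference was 0.44 and no longer called when its copy Eno1b was added), and Slc2a3, the glucose transporter GLUT3 (2.07-fold lower, 1.98 to 2.17). With equal totals Slc2a3 came to -0.99, just under 2-fold. Hypoxia-responsive genes were slight, with 14 of 19 passing members under 1.5-fold apart, a median of -0.10 and Ak4, a mitochondrial adenylate kinase, 2.15-fold lower (2.0003 to 2.31).

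Cholesterol and lipid synthesis genes were level, with 29 of 34 under 1.5-fold apart, 0 called and a median of 0.16. Fasn, fatty acid synthase, was 1.77-fold higher. Serine and one-carbon metabolism genes were level in 17 of 18, and the exception was Cbs, cystathionine beta-synthase, 4.66-fold lower (3.12 to 7.40) at 28 against 126 reads. Amino acid and integrated stress response genes met the rule for level with a median of 0.17 and 23 of 30 under 1.5-fold apart, though 5 were at least 2-fold higher and 0 lower. These 5 were Stc2, a secreted glycoprotein (6.26-fold, 4.28 to 9.46), the stress factors Cebpb (3.38-fold) and Ddit3 (2.06-fold, with a difference of 0.96 at a pseudocount of 10), the pseudokinase gene Trib3 (2.29-fold) and Asns, asparagine synthetase (2.12-fold). The unfolded protein response of the endoplasmic reticulum was level in 19 of 19 members (median -0.04).

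Programs of protein synthesis, splicing and turnover were level. All 31 proteasome genes were under 1.5-fold apart (median -0.15), as were 30 of 31 translation factors (-0.17), 47 of 49 cytosolic ribosomal protein genes (-0.16), 33 of 34 spliceosome genes (0.01) and 30 of 34 ribosome biogenesis genes (-0.01). Eef1a1, the elongation factor that brings aminoacyl-tRNA to the ribosome, stood at 18.94 and 19.05. The called members were Eif5b, which joins the ribosomal subunits, 2.28-fold higher (2.20 to 2.37), and Nolc1, a nucleolar phosphoprotein, 2.70-fold higher (2.61 to 2.78).

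Division genes were level, with shares of called members near those of all genes in DNA replication and above them in mitosis. Of 42 DNA replication and S phase genes 39 were under 1.5-fold apart (median 0.07), and Rfc1, the large subunit of the clamp loader, and Uhrf1, a reader of hemimethylated DNA, were 2.59-fold (2.44 to 2.75) and 2.15-fold higher (2.09 to 2.20), 4.76% of the members against 5.74% of all genes. Of 34 mitosis and proliferation marker genes 28 were under 1.5-fold apart (median 0.07), 4 at least 2-fold higher (11.8%) and 0 lower. Mki67, the gene of the proliferation antigen Ki-67, stood at 12.54 and 10.30, 4.72-fold higher (4.44 to 5.03). Cenpf and Cenpe, kinetochore proteins, were 3.21-fold (2.89 to 3.57) and 2.71-fold higher (2.49 to 2.96), and Tpx2, a spindle assembly factor, 2.18-fold higher (2.09 to 2.28). The mitotic kinase gene Cdk1 and its partner Ccnb1 did not move with them, at 12.56 against 12.86 and 12.98 against 13.08.

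BCL2 family survival genes and p53 targets were slight. Of 18 listed BCL2 family genes, 17 were measured and 15 passed, with a median of -0.09, 0 at least 2-fold higher and 3 lower. These were Bik, a killer member (5.10-fold, 3.35 to 8.03, at 27 against 131 reads), and the near-identical copies Bcl2a1d and Bcl2a1b of a survival gene (2.51-fold and 2.19-fold), whose reads can be split between copies. Bcl2a1b came to -0.93 with length and GC content centred. Bcl2 itself was 1.81-fold higher. Among 23 passing p53 targets, of 25 listed, 17 were under 1.5-fold apart (median 0.22), with Phlda3, an inhibitor of AKT, 2.05-fold higher (1.85 to 2.27) and Perp, a membrane protein of apoptosis, 2.34-fold lower (2.11 to 2.59).

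Outside the programs, the largest differences toward TRP1high with K8 included genes with few reads on the other side. S100a6, a calcium binding protein (chromosome 3, 90612882 to 90624181), stood at 8.35 and 2.40 (327 against 4 reads), 76.0-fold higher (30.1 to 287). Nt5e, the ectonucleotidase CD73 that makes adenosine, stood at 8.21 and 3.14, 37.8-fold higher (19.2 to 101), and Per2, a clock gene, at 9.53 and 4.68, 29.96-fold higher (20.2 to 48.5). These 3 were also higher in TRP1high with M9 than in TRP1low with K8, by 1.91-fold, 7.10-fold and 6.25-fold.

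Cd22 and Pax5, both genes of B cells, were 74.8-fold (24.3 to 740) and 30.5-fold higher (18.6 to 51.9). Drc1, a dynein regulator, was 25.7-fold, Kctd15 19.4-fold, F2rl1, the protease-activated receptor PAR2, 12.4-fold and Adam19, a membrane metalloprotease, 11.7-fold higher. Capn3, a calpain protease, Ctla2a, a cathepsin inhibitor, and Gpr55, a lipid receptor, were 24.9-fold, 14.1-fold and 11.5-fold higher, and like Tnfrsf8 and Cxcr3 they were lower in TRP1high with M9 than in TRP1low with K8 (19.6-fold, 11.1-fold and 2.64-fold). By normalized count, the foremost among the genes at least 2-fold higher were Actb, beta actin (18.15 and 17.12, 2.04-fold), Eno1, Chd4, Uhrf1, Larp1 and Vim, which encodes the intermediate filament vimentin. Vim stood at 14.46 and 12.11, 5.08-fold higher (4.91 to 5.25).

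Toward TRP1low with M9, Crabp2 (chromosome 3, 87948666 to 87953376), which binds retinoic acid, stood at 4.46 and 10.68, 78.0-fold lower in TRP1high with K8 (51.1 to 127). In the other pair it stood at 10.56 in TRP1high with M9 and 4.12 in TRP1low with K8, so both M9 libraries were high and both K8 libraries low. Rasgef1b, an exchange factor, and Spin4 had the same layout and were 15.6-fold and 13.0-fold lower. Trpa1, an ion channel, Cnga1, another channel, and Tnfrsf11b, the decoy receptor osteoprotegerin, were 20.1-fold, 26.5-fold and 17.1-fold lower at 5 to 7 reads in TRP1high with K8. Slfn2, a regulator of T cell quiescence, was 3.17-fold lower (3.05 to 3.30), and Itm2a, a membrane protein induced on T cell activation, 4.75-fold lower (4.48 to 5.03). Both were close in the other pair, with differences of 0.28 and 0.18.

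Among the 15 lowest genes, 6 were at least 2-fold lower in TRP1high in both pairs. Cnga1 and Tnfrsf11b were 8.47-fold and at least 2.76-fold lower in the other pair, the latter against a floor of 3 reads. Eno1b, an intronless enolase copy (chromosome 18, 48045335 to 48048412), was 207-fold lower in TRP1high with K8 (178 to 244) and 206-fold lower in TRP1high with M9. Gbp2b, a guanylate binding protein gene, was 115-fold (81.7 to 167) and 513-fold lower, and Gdpd3, a phosphodiesterase gene, 75.4-fold (35.4 to 213) and 447-fold lower. Arhgef5, a guanine nucleotide exchange factor, was 16.6-fold (9.62 to 32.1) and 11.3-fold lower. Eno1b and Gbp2b have similar genes, Eno1 and Gbp2, that moved the opposite way: the difference was 1.06 for Eno1 and 0.44 for Eno1 and Eno1b summed, and 0.86 for Gbp2 and 0.30 for Gbp2 and Gbp2b summed. Whether reads passed from 1 gene to the other was not tested. Rpl3, a ribosomal protein gene, had a difference of 0.61 that became -0.10 with its pseudogene Rpl3-ps1 added, and Rps3a1 one of 0.72 that became -0.23 with Rps3a2 and Rps3a3 added. Rps13 went from 0.33, close, to -1.08, past 2-fold, with its pseudogene Rps13-ps1 added. Such copies are uncertain where the counting could split reads. Rpl3-ps1 stood at 6.83 (K8) and 0 (M9) in TRP1high and at 15.46 (M9) and 15.35 (K8) in TRP1low. Rps13-ps1 stood at 6.34 and 4.99 against 14.01 and 13.86, in the same order. Why these copies followed the receptor label with either peptide was not tested.

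Pseudogenes, receptor and immunoglobulin segments and unnamed gene models, 719 of the passing genes (7.04%), were frequent among the lower genes. They made up 23.4% of the genes at least 2-fold lower, 46.4% of those at least 4-fold lower and 6.66% of those at least 2-fold higher. Without them, 547 of 9491 genes were at least 2-fold higher (5.76%), 278 at least 2-fold lower (2.93%) and 7355 under 1.5-fold apart (77.5%). The shares of higher and close genes thus stayed near those of all genes, and that of lower genes was smaller.

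Markers of the B cells that had presented the peptide were higher in TRP1high with K8. All 26 listed were measured, with a median difference of 1.76, 19 at least 2-fold higher and 0 at least 2-fold lower. The limit on counts was not applied to the marker lists, and 15 of these 26 passed it. The 19 thus include scarce genes and cannot be read against the share of all passing genes that were higher. In TRP1low with M9, 2 markers were at 0 (Cr2 and Ciita), against 0 markers in TRP1high with K8. Cd79a, of the B cell receptor, stood at 7.19 and 4.87 and Ms4a1, the gene of CD20, at 7.30 and 4.72. Summed over the list, normalized counts were 24981 and 19936, most of it Ighm, which was close at 14.10 and 14.01. Cd37 stood at 10.88 and 10.37, and Pou2af1 was 1.79-fold lower, at 8.75 and 9.59. Without Ighm, Cd37 and Pou2af1, none of which was 2-fold higher, the sums were 5126 and 1396. In the other pair the K8 library had 24150 and the M9 library 19828 over the list, and 4189 and 1832 without these genes. Each sum was thus higher in the K8 library of both pairs, though Cd22 and H2-Ab1 were higher in the M9 library of the other pair. The 15 CD8 T cell markers were close, with a median of -0.14 and sums of 209345 and 239908, and Trbc1 was their 1 called member. How far B cell transcript enters the naive and memory (S1pr1, Klf2 and Rasgrp2 among them), chemokine receptor, interferon-stimulated and MHC programs, Prdm1, Cd22 or Pax5 was not tested.

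Of the other cell types, 7 of 12 plasma cell markers were measured, with a median difference of 0.67, 3 at least 2-fold higher and 0 lower. The 3 were Mzb1 (59 against 1 read), Jchain (31 against 1) and Prdm1. In the other pair Mzb1 and Jchain were higher in TRP1low with K8, at 63 against 1 and 36 against 5 reads. Of the CD4 T cell markers 8 of 10 were measured, with a median of 0.02. Cd4 itself stood at 1.64 and 4.27 (2 against 17 reads). Myeloid markers (15 of 25 measured) summed to 1910 and 3092 normalized counts, most of it the 1805 and 2955 of Cst3. The next of them, Cd68, had 51 and 55 reads. Erythroid markers (7 of 10) summed to 30.8 and 43.8 normalized counts. Among 9 markers of gamma delta T or NK cells matched by symbol the median was -0.23. That median leaves out constant genes of the gamma chain, which the list held under other symbols than the deposited ones. These genes were higher in TRP1high with K8, so the median does not stand for the whole list. Tcrg-C1 stood at 9.83 and 1.63, Tcrg-C2 at 9.003 and 2.05 and Tcrg-C4 at 10.50 and 1.63. Trdc, the delta constant gene, was close at 9.40 and 9.64.

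The share of called genes moved with transcript length and base composition. When 9637 genes were put in 5 groups of equal size by the length of their longest coding transcript, genes at least 2-fold higher in TRP1high with K8 made up 2.75% of the shortest group and 11.4% of the longest, and the median difference went from -0.18 to 0.13. Genes at least 2-fold lower had no such course, at 3.32% and 3.58%. By GC content the higher share went from 2.70% in the lowest group to 8.61% in the highest, and the median from -0.14 to 0.11. After the median of genes of like length and GC content was taken from each difference, Chd4, Larp1, Dnmt1 and Iqgap1, 4 of the 10 genes that led by normalized count among those higher, came to 0.74, 0.68, 0.69 and 0.77 and were no longer 2-fold apart. Of the 117 called genes recomputed in this way, 14 fell under 2-fold. The part of length and GC content in the differences was not tested further.

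**Figure D4:**
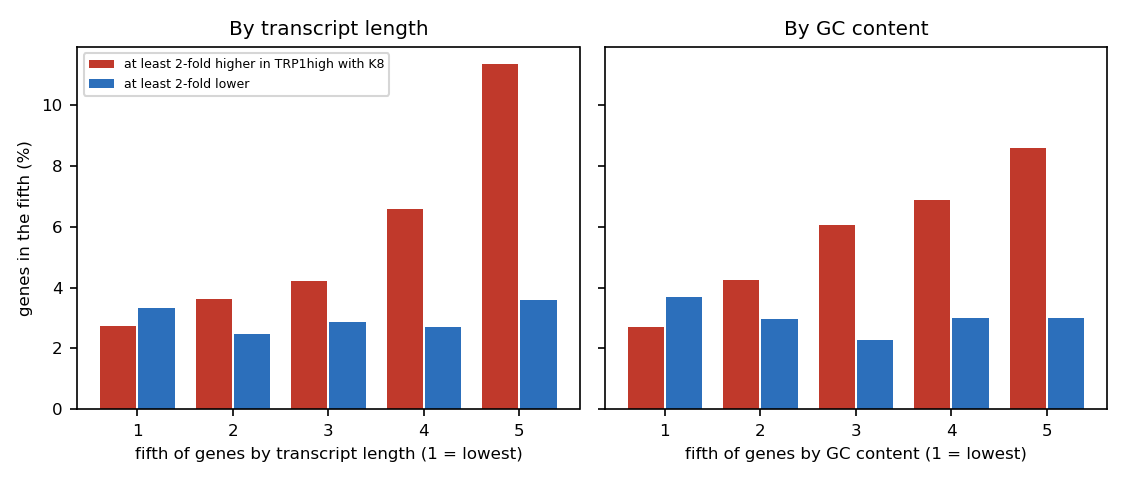
Bars give the percent of genes at least 2-fold higher (red) or lower (blue) in TRP1high with K8 in each of 5 groups of 9637 genes of equal size, ordered by transcript length on the left and by GC content on the right. The red bars climb from 2.75% to 11.4% with length and from 2.70% to 8.61% with GC content, and the blue bars stay between 2.28% and 3.68%.

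With the peptides exchanged, the distance between the libraries was larger. The library of TRP1low with K8 also stood apart from the other 3. It had 29.6 M estimated reads against 40.3 M to 41.5 M, 1205 genes at 0 against 633 to 769, and erythroid markers summed to 624 normalized counts against 30.8 to 49.8, with Hba-a2, an alpha globin gene, at 178 reads against 0. The part of this library in the larger distance was not tested. TRP1high with M9 and TRP1low with K8 had 2140 of 10375 genes at least 2-fold apart (20.6%, with 11.5% higher and 9.17% lower) and 6168 under 1.5-fold (59.5%), against 949 (9.29%) and 77.2% for the pair described here. Among 10057 genes that passed in both pairs, the differences correlated at 0.45 (Pearson) and 0.29 (Spearman), and without pseudogenes, segments and gene models at 0.23 and 0.28. These values are across genes of the same libraries, which are not independent replicates. Of 542 genes at least 2-fold higher here, 270 were at least 2-fold higher in TRP1high in the other pair (49.8%), 63 at least 2-fold lower (11.6%) and 209 neither. Of 323 genes lower here, 132 were lower in the other pair (40.9%), 74 higher (22.9%) and 117 neither. Without the uncertain genes the lower list held 244, of which 69 kept the direction (28.3%) and 72 took the opposite one (29.5%).

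By program, the pair described here had 16 level programs and the other pair 6, over the same members. Of the 16 level here, 6 were level in the other pair: oxidative phosphorylation, serine and one-carbon metabolism, translation factors, proteasome, spliceosome and DNA replication. Another 3 were higher there, namely glycolysis (median 1.09), cholesterol and lipid synthesis (0.77) and the amino acid and integrated stress response (0.91). The interferon-stimulated program met the rule for higher in both pairs. Programs on opposite sides of 0 included the TCR-induced genes (-0.56 and 1.11), inhibitory receptors (-0.79 and 0.96) and cytokines (-0.48 and 0.52). Cytotoxic genes (-0.38 and 0.44), chemokine receptors (0.30 and -0.71) and transcription factors (0.29 and -0.63) were others. Hypoxia-responsive genes (-0.10 and 1.09), activation receptors (-0.07 and 0.61) and ribosomal protein genes (-0.16 and 0.34) also changed sign. So did p53 targets (0.22 and -0.10), DNA replication (0.07 and -0.18) and proximal TCR signalling (-0.04 and 0.13). The medians of oxidative phosphorylation (-0.14 and 0.06), the unfolded protein response (-0.04 and 0.05) and mitosis (0.07 and -0.03) did as well. The difference between the pairs was not tested.

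**Figure D5:**
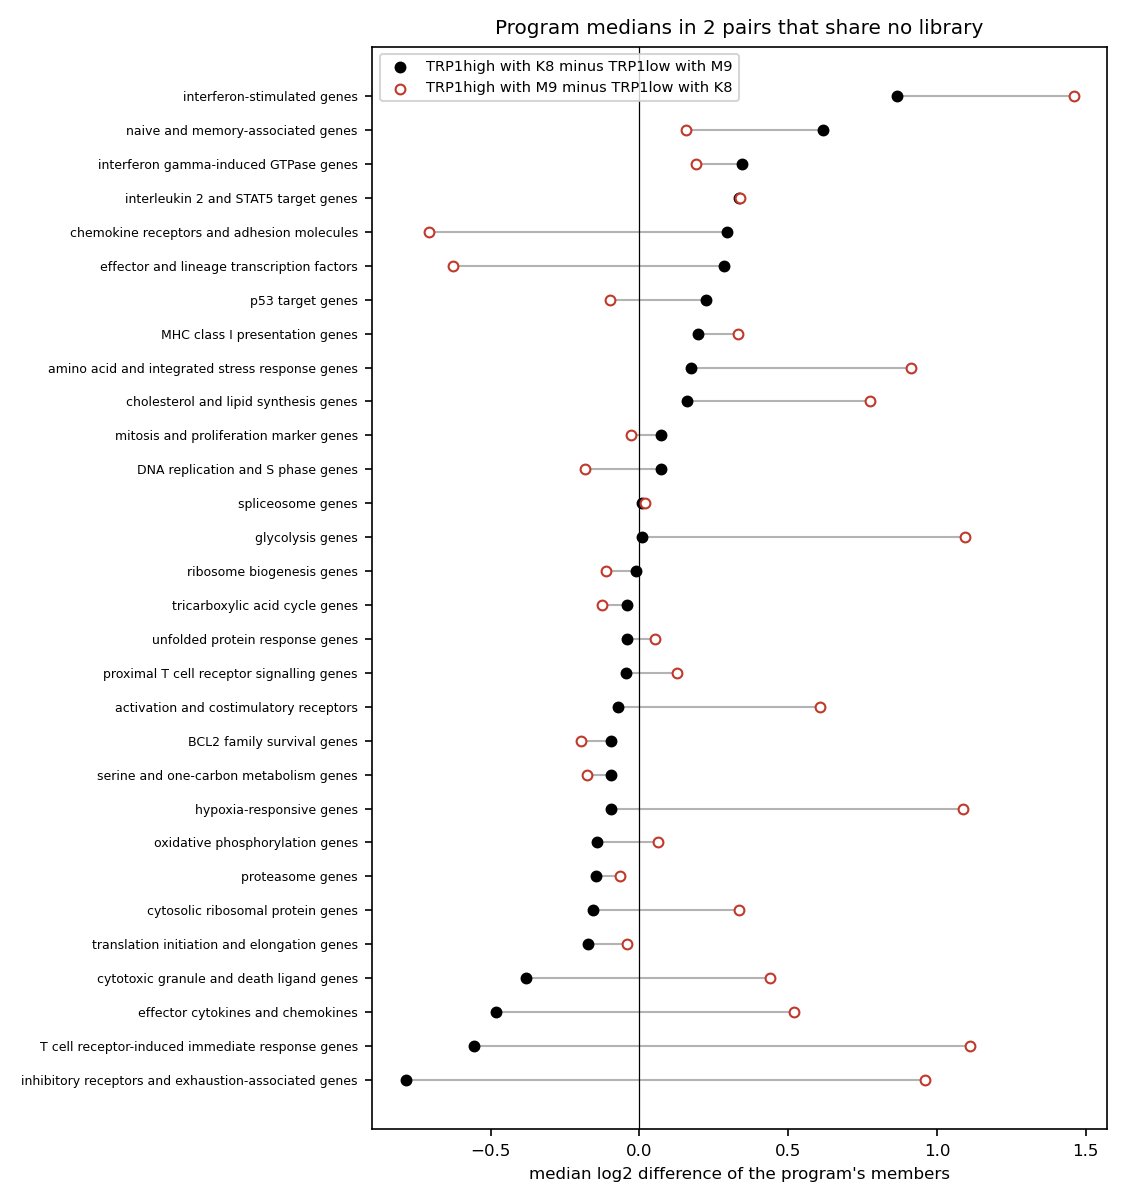
For each of 30 programs, the filled circle is the median log2 difference of its members in TRP1high with K8 minus TRP1low with M9 and the open circle the median of the same members in TRP1high with M9 minus TRP1low with K8. The circles lie close for the spliceosome and proteasome, far apart on 1 side for glycolysis and cholesterol synthesis, and on opposite sides of 0 for TCR-induced genes and inhibitory receptors.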

How the data were processed

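RNA from sorted mouse T cells was sequenced, 1 library per group, and groups were taken from the sample titles. The deposited unit is the log2 of normalized counts for each gene symbol, per the file headers. Per the submitters' processing notes, the authors used Salmon 0.8.2 and DESeq2 1.20.0 with build mm10. Transcript annotation and filters: not given in the sources used here. Values were read as the log2 of a count divided by a size factor, plus 1, since low values fell on multiples of 0.998 (TRP1high with K8) and 1.05 (TRP1low with M9), the worth of 1 read. Only 56.4% and 56.1% of the values up to 50 reads lay within 0.01 of a whole read, so whole reads were not recovered and no count test was run. For intervals, estimated reads were rounded. Genes at 0 numbered 633 and 769.

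Python 3.11.15 with numpy 2.4.6, pandas 2.3.3 and scipy 1.17.1 was used, and the code for calls and intervals was run on simulated data. The simulated reads were whole and held counting error alone. That run therefore checks the code and says nothing of the spread between real libraries. Named genes were the 15 highest and 15 lowest differences without segments, pseudogenes and gene models, up to 4 members with the largest difference per program, the 4 foremost by count in a level program, and the 10 foremost by count of the called genes in each direction. Other genes were named after their values were seen, and a few genes that the rule names are not reported here. The pair, the gene lists and the rules were chosen with earlier results of these data known. Positions and lengths are from GENCODE M21 and promoters from RefSeq on GRCm38.p6. Scaling, pseudocount, the limit on counts, the genes counted, and length and GC content were varied.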

Additional observations from a re-analysis of the deposited data

How the results depend on the processing

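No paired analysis was possible because each group has 1 library and the titles carry no replicate numbers. For the same reason no library could be left out. The limit on counts moved the counts of genes most. At 10 normalized counts the higher genes numbered 1232 and the lower 974, and at 1000 there were 252, 98 and 5100 under 1.5-fold. At 10, medians that changed standing were cytotoxic genes (-0.36, mixed), inhibitory receptors (-0.48, mixed), GTPases (0.43, mixed), integrated stress response (0.16, slight) and p53 targets (0.21, level). At 1000 they were cytokines (-1.83, lower), transcription factors (-0.047, slight), chemokine receptors (0.21, slight) and p53 targets (0.13, level). A pseudocount of 10 made p53 targets level (0.22). Equal totals moved every difference by 0.07, and TCR-induced genes became mixed (-0.49), MHC class I slight (0.26), hypoxia level (-0.030) and BCL2 genes mixed (-0.028). Single genes were recomputed for the 117 called ones, which are the 15 highest and 15 lowest, the most abundant and the called program members. Slc2a3 (-0.99), Prelid2 (-0.97) and Cd69 (-0.96) fell under 2-fold with equal totals, and Ddit3 (0.96) with the pseudocount of 10. Setting the median or the trimmed mean difference to 0 changed no standing and no count by over 1.5 times, and of the 117 genes Cd69 (-0.99 and -0.997) lost its call.

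The next alternatives were chosen after seeing the data. Without members known in B cells or myeloid cells, cytokines were lower (-0.69) and chemokine receptors (0.24) and BCL2 genes (-0.034) level. With length and GC content centred, GTPases became mixed (0.44), MHC class I slight (0.28), hypoxia level (-0.093) and BCL2 genes mixed (-0.057), and 14 of the 117 genes fell under 2-fold. None of the 117 could turn its direction under the pseudocount, the 3 scalings or the centring, so that they kept it says nothing about them. They were chosen at a difference of at least 1 either way. The scalings moved a difference by 0.07 at most and the centring by 0.68 at most, and a larger pseudocount keeps the sign. The program medians that changed sign belonged to level or slight programs and to transcription factors. The cause of these shifts was not tested.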
